A study of Homo sapiens with 18 samples.

Results

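RNA of the GFP- fraction of a beta-cell differentiation was set against RNA of definitive endoderm (DE) in the human MEL1 line, to describe which lineages other than beta cells that fraction holds. Libraries were taken by their labels: 2 of GFP- cells and 2 of DE, of 18 in the series. All 57808 genes of the deposited table were considered, and 21528 passed a filter on low counts and were tested. MEL1 is an established embryonic stem cell line, and its INSGFP/W reporter places GFP in an insulin allele, so that GFP marks cells that use the insulin gene. The GFP- cells came from stem cells taken towards beta cells (sBC) in a stirred suspension bioreactor and were sorted for lack of GFP; their genotype label is GFP- and their cell type label is that of beta cells. The DE libraries carry the genotype label RPL22-FLAG, a FLAG tag on ribosomal protein RPL22, and no sort is given for them. The 2 GFP+ sBC RNA libraries, from the same kind of culture and sort, were used to test what distinguished GFP- cells from the rest of that culture. Whether replicates are separate cultures is not in the labels, and p-values measure the spread between libraries, which may be technical. Stage, sort, genotype, depth and library set differ together between GFP- sBC and DE and cannot be told apart.

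Definitive endoderm is the germ layer that forms the lining of gut and airway, the liver and the pancreas. It is patterned in stages into a pancreatic epithelium marked by PDX1, NKX6-1 and SOX9, in which NEUROG3 starts the endocrine programme, while cells that do not switch it on form duct and acinar tissue. Differentiation to beta-like cells is known to yield other hormone cells, enterochromaffin-like cells (serotonin-producing endocrine cells of gut type) and non-endocrine epithelium beside beta-like cells, all of which can fall in the GFP- gate.

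Depth in counts was 37651074 and 27359178 in the GFP- libraries, against 92533993 and 91580220 in DE. Levels are CPM, the count scaled to library size with TMM normalisation, given for replicate 1 and then replicate 2. The GFP- libraries differed from each other more than the DE libraries did. Over 16339 genes, their Spearman correlation was 0.905 and 27.3% of genes differed more than 2-fold, against 0.999 and 0.5% in DE. Mitochondrially encoded mRNAs took 0.42% and 4.35% of counts in GFP- sBC, and 0.644% and 0.486% in DE. RPL22 itself had 2610 and 803 CPM in GFP- sBC, against 645 and 662 CPM in DE (log2 fold change 1.43 ± 0.59 SE, adjusted p = 0.106). Of 10128 genes with at least 15 CPM in either GFP- library, 49 were over 8-fold higher in replicate 1 and 12 in replicate 2.

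In edgeR's quasi-likelihood test at an adjusted p under 0.05, 5651 genes were higher in GFP- sBC than in DE (26.2% of those tested) and 4499 were lower (20.9%). The libraries of the groups did not overlap for 81.1% of genes, and the median log2 fold change was 0.03. Without a GFP- library the counts were 8253 higher and 8701 lower (replicate 1 left out) or 8738 and 8955 (replicate 2 left out), with the spread taken from the DE pair. Without a DE library they were 2792 and 2012 (replicate 1 left out) or 2729 and 2014 (replicate 2 left out), with the spread taken from the GFP- pair. Calls over all genes thus changed with the library left out, and list counts from such fits are to be read beside these counts. In bulk RNA, fewer cells of a type and less RNA per cell cannot be told apart. A gene at 0 counts in 1 group passed the filter only through the other group, so its direction was fixed before the test. The list counts below include such genes: 3 alpha cell, 4 beta cell, 3 acinar and 5 stomach and oesophagus members, with fewer in other lists.

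**Figure D1:**
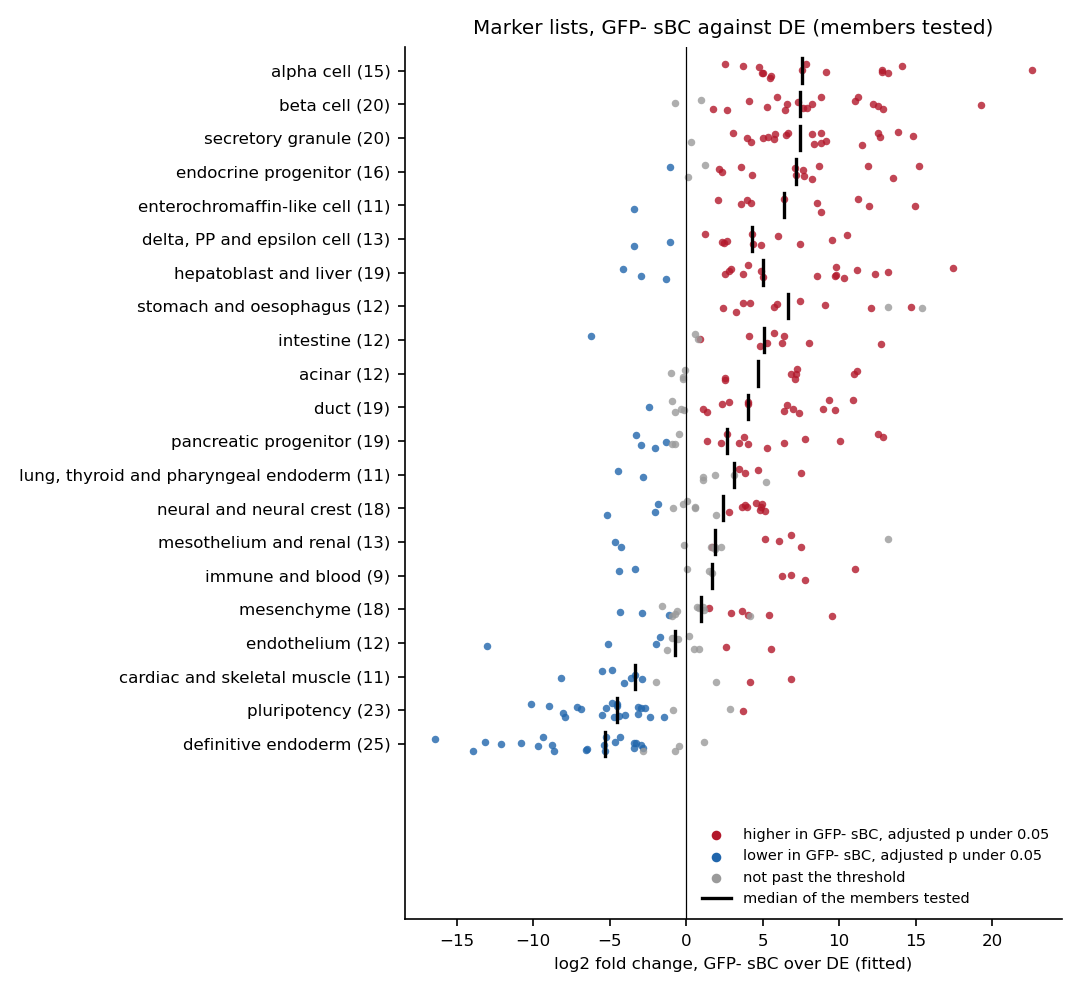
Fitted log2 fold change (GFP- sBC over DE, horizontal axis) of the tested members of 21 marker lists, with 1 point per gene, coloured by call, and a black bar at the median. The hormone, granule and liver lists lie mostly to the right of 0, and the definitive endoderm list has 21 of 25 members lower; fitted values of genes at 0 in a group depend on the prior count and are no bounds.

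Most endoderm genes were far lower in GFP- sBC than in DE. Of 25 definitive endoderm genes 21 were lower in GFP- sBC, 0 were higher, and the median log2 fold change was -5.33. EOMES, a T-box factor that sets up mesendoderm, had 0 and 0.0587 CPM in GFP- sBC, against 440 and 473 CPM in DE, a ratio of 5.65e-05 with a 95% counting interval of 6.84e-06 to 0.000204. GSC, an organiser homeobox gene, had 0 counts in GFP- sBC, against 179 and 206 CPM in DE, which makes it at least 4962-fold lower with 3 counts over both GFP- libraries taken as the floor. SOX17, the endoderm SOX factor, had 0.184 and 0 CPM in GFP- sBC, against 469 and 471 CPM in DE (log2 fold change -12.12 ± 0.97, adjusted p = 0.00337). The groups lay far apart for each of these genes. CER1, a secreted inhibitor of Nodal signals, had 3.7 and 3.11 CPM in GFP- sBC, against 1495 and 1601 CPM in DE (-8.78 ± 0.31, adjusted p = 0.00253). The ligand NODAL fell by 10.82 on the log2 scale, and its antagonist LEFTY2, which shares reads with its near copy LEFTY1, fell by 13.13.

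Factors that endoderm shares with pancreas and gut fell less or did not pass the test. GATA6, a zinc-finger factor of early endoderm and pancreas, had 72.7 and 57.4 CPM in GFP- sBC, against 642 and 650 CPM in DE (-3.27 ± 0.26, adjusted p = 0.00315). CXCR4, the chemokine receptor by which DE is often sorted, had 10.3 and 16.4 CPM in GFP- sBC, against 268 and 296 CPM in DE (-4.36 ± 0.36, adjusted p = 0.0035). FOXA2, a pioneer factor kept throughout the gut tube, had 153 and 120 CPM in GFP- sBC, against 192 and 194 CPM in DE (-0.45 ± 0.25, adjusted p = 0.187). Both groups stood apart for these genes, with GFP- sBC lower in every library.

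Pluripotency genes, several of which DE still carried, were lower too: 20 of 23 tested fell and 1 rose, with a median of -4.51. POU5F1, the core pluripotency factor, had 1.73 and 2.17 CPM in GFP- sBC, against 42.4 and 40.8 CPM in DE (-4.37 ± 0.31, adjusted p = 0.00275). LIN28A, an RNA-binding protein that blocks let-7 maturation, had 28.1 and 13.5 CPM in GFP- sBC, against 2564 and 2392 CPM in DE (-6.85 ± 0.51, adjusted p = 0.00303). The member that rose was SOX2, which also marks foregut and stomach epithelium: 30.2 and 14.5 CPM in GFP- sBC, against 2.43 and 1.06 CPM in DE (3.72 ± 0.63, adjusted p = 0.0125).

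The gene with the largest fall in the fit was MIR302CHG, the host transcript of the miR-302/367 cluster, which is known for its activity in pluripotent cells. It had 0 counts in both GFP- libraries, against 439 and 502 CPM in DE, at least 12155-fold lower. Its gene lies at chr4:112646720-112650051 (GRCh38.p14, noncoding) and holds 5 mature 3p miRNAs, shown here because they are what the lost transcript encodes. Mature miRNAs were not measured in these libraries. The sequences are from RefSeq on GRCh38.p14, written 5′ to 3′, with the seed (bases 2 to 8) in capitals.
hsa-miR-302a-3p: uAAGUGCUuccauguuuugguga
hsa-miR-302b-3p: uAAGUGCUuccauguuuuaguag
hsa-miR-302c-3p: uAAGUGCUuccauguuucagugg
hsa-miR-302d-3p: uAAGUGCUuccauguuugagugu
hsa-miR-367-3p: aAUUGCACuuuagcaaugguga
The miR-302 members share the seed AAGUGCU, and miR-367 has the seed AUUGCAC. Other noncoding RNAs among the largest falls were LINC02413, at least 1916-fold lower, and LINC00458, with 0.023 and 0.0294 CPM in GFP- sBC against 381 and 363 CPM in DE.

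Glucagon had the largest fitted log2 fold change. All 15 alpha cell genes were higher in GFP- sBC than in DE, with a median log2 fold change of 7.57, or 5.56 with the 3 members at 0 in DE set at their bound. GCG, the glucagon precursor (chr2:162142882-162152247, GRCh38.p14), had 16601 and 10540 CPM in GFP- sBC and 0 counts in both DE libraries, at least 710426-fold higher. TTR, transthyretin, made by alpha cells and by liver, had 3455 and 2430 CPM in GFP- sBC, against 0.366 and 0.288 CPM in DE (13.17 ± 0.46, adjusted p = 0.00253). No value of these genes overlapped between the groups. RMRP, the RNA of the RNase MRP complex that every cell uses, is listed at 1609 and 1163 CPM in GFP- sBC and 835 and 681 CPM in GFP+ sBC, but at 0 in both DE and both undifferentiated stem cell libraries. No fold is given for it, since stage and library set cannot be told apart here.

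GFP- sBC also held beta cell RNA, with 18 of 20 beta cell genes higher, 0 lower and a median of 7.45 (6.94 with 4 members at 0 in DE set at their bound). INS, the insulin gene and the locus of the reporter, had 1702 and 980 CPM in GFP- sBC and 0 counts in DE, at least 70579-fold higher; in GFP+ sBC it had 4396 and 4826 CPM. Reads of INS and of the INS-IGF2 readthrough gene could be split between the annotations. PDX1 had 89.5 and 82.7 CPM in GFP- sBC, against 0.0131 CPM in each DE library, a ratio of 6616 with a counting interval of 1831 to 54642. ABCC8, the sulfonylurea receptor of the ATP-sensitive potassium channel, had 410 and 302 CPM in GFP- sBC, against 0.144 and 0.157 CPM in DE (11.23 ± 0.41, adjusted p = 0.00253). MAFA, a factor of mature beta cells, stayed low, with 0.552 and 0.998 CPM in GFP- sBC, against 0.484 and 0.314 CPM in DE (0.99 ± 0.51, adjusted p = 0.17). IAPP, the amyloid peptide co-secreted with insulin, had 1.59 and 1.03 CPM in GFP- sBC, against 0.209 and 0.222 CPM in DE (2.64 ± 0.44, adjusted p = 0.012), a call lost when either DE library was left out.

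The genes of other islet hormones were higher as well. Of 13 tested genes of delta, PP and epsilon cells 11 were higher and 2 lower (HHEX and ACSL1), with a median of 4.28. SST, somatostatin, had 133 and 117 CPM in GFP- sBC, against 0.144 and 0.0262 CPM in DE (10.53 ± 0.77, adjusted p = 0.00295). GHRL, ghrelin, had 7.09 and 4.49 CPM in GFP- sBC, against 0.0262 and 0.0393 CPM in DE (7.42 ± 0.55, adjusted p = 0.00303). PPY, pancreatic polypeptide, had 1.54 and 0.617 CPM in GFP- sBC, against 0.0915 and 0.0131 CPM in DE (4.36 ± 0.95, adjusted p = 0.0218).

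Enterochromaffin-like genes were strongly higher, with 10 of 11 tested genes up, 1 down (TRPA1) and a median of 6.39. TPH1, which starts serotonin synthesis, had 194 and 1013 CPM in GFP- sBC, against 0.157 CPM in each DE library (11.94 ± 1.26, adjusted p = 0.0048). FEV, a serotonergic ETS factor, had 92.2 and 129 CPM in GFP- sBC, against 0.0523 and 0.0393 CPM in DE (11.22 ± 0.48, adjusted p = 0.00253). SLC18A1, the vesicular monoamine transporter, had 35.4 and 96.7 CPM in GFP- sBC and 0 counts in DE, at least 3177-fold higher. The tachykinin precursor TAC1 had 7.5 and 50.4 CPM in GFP- sBC, against 0.144 and 0.0131 CPM in DE (8.54 ± 1.52, adjusted p = 0.014). TPH1, SLC18A1 and TAC1 were each higher in GFP- replicate 2 than in replicate 1, yet both replicates lay above DE.

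**Figure D2:**
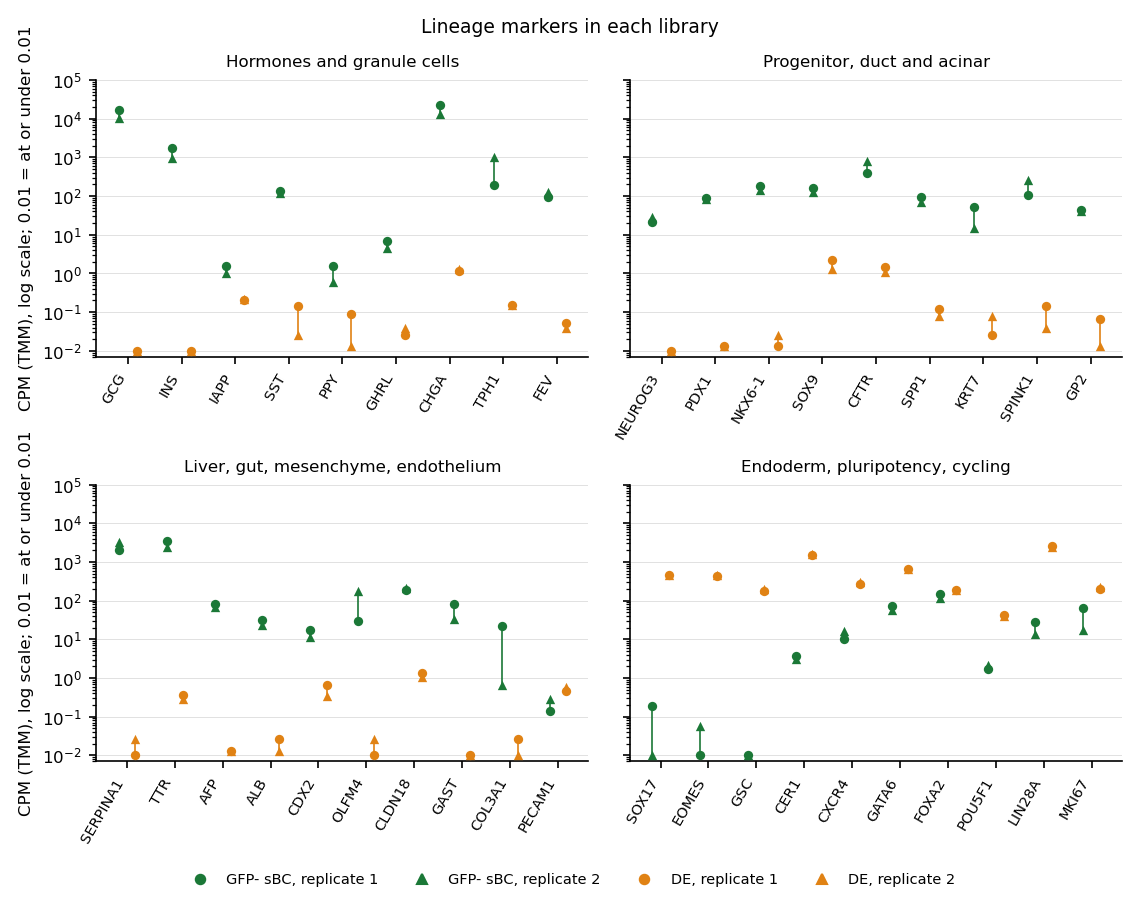
Levels of lineage markers in each library (vertical axis, CPM on a log scale, with values at or under 0.01 drawn at 0.01), with GFP- sBC in green left of DE in orange, circles for replicate 1 and triangles for replicate 2. GCG, INS and NEUROG3 sit at the floor in DE, and GSC sits at the floor in GFP- sBC; COL3A1 and TPH1 show wide gaps between the GFP- libraries.

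Endocrine progenitor and secretory granule genes were mostly higher in GFP- sBC. Of 16 endocrine progenitor genes 13 were higher and 1 lower (SOX4), with a median of 7.16. NEUROG3, the switch into the endocrine lineage, had 21.9 and 28.3 CPM in GFP- sBC and 0 counts in DE, at least 1259-fold higher. NEUROD1, its target and an islet helix-loop-helix factor, had 262 and 385 CPM in GFP- sBC, against 0.0131 and 0 CPM in DE, a ratio of 48283 with a counting interval of 8665 to 1907149. Of 20 granule genes 19 were higher and 0 lower, with a median of 7.44. CHGA, chromogranin A, had 22391 and 13426 CPM in GFP- sBC, against 1.19 and 1.3 CPM in DE (13.86 ± 0.53, adjusted p = 0.00253). RAB3B, a vesicle GTPase, was the member not past the threshold, with 288 and 694 CPM in GFP- sBC, against 400 and 419 CPM in DE.

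The promoters of CHGA, of the proneuropeptide VGF, of the prohormone convertase PCSK1 and of SST are shown because each holds the cAMP response element TGACGTCA, a site known to be read by CREB-family factors, close to the start of a gene that rose. VGF had 54.6 and 25.5 CPM in GFP- sBC, against 1.27 and 1.26 CPM in DE (5.03 ± 0.51, adjusted p = 0.00447). PCSK1 had 34.3 and 86.2 CPM in GFP- sBC, against 0.144 and 0.131 CPM in DE (8.8 ± 0.72, adjusted p = 0.00345). The 120 bases before each start are given 5′ to 3′ on the strand of the gene, from RefSeq on GRCh38.p14, with the element in capitals.
SST, chr3:187670395-187670514, minus strand: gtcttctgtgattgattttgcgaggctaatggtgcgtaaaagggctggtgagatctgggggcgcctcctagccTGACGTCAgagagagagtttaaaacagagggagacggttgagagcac
CHGA, chr14:92923030-92923149, plus strand: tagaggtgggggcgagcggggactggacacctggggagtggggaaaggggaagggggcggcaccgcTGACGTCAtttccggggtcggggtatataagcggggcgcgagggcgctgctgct
VGF, chr7:101165570-101165689, minus strand: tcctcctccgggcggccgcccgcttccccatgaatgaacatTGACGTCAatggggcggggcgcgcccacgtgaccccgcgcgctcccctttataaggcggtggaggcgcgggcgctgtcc
PCSK1, chr5:96433249-96433368, minus strand: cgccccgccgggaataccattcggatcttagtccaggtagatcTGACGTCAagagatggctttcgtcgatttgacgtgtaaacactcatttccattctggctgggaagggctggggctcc
The element begins 54 bases before the start in CHGA, 79 in VGF, 77 in PCSK1 and 47 in SST. Its letters read the same on both strands. In the 250 bases before the start it was found for 3 of 14 granule genes with a promoter entry (21.4%), against 2.03% of 27305 genes with a window and 1.65% of all 35116 promoter windows. Those 3 are CHGA, VGF and PCSK1, shown because they hold it, so the share is no test of the list. It was found for 1 of 12 delta, PP and epsilon cell genes, and for 0 of 13 in each of the liver and definitive endoderm lists. Among tested genes it was found for 2.25% of those higher in GFP- sBC, 3.6% of those lower and 3.22% of those not past the threshold.

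Pancreatic progenitor and duct genes were mostly higher in GFP- sBC than in DE. Of 19 progenitor genes 12 were higher and 4 lower (HNF4A, GATA4, GATA6 and TCF7L2), with a median of 2.64; 7 were lower when either GFP- library was left out. NKX6-1 had 177 and 141 CPM in GFP- sBC, against 0.0131 and 0.0262 CPM in DE, a ratio of 8213 with a counting interval of 2810 to 39832. SOX9, which keeps progenitors and duct cells in their state, had 162 and 126 CPM in GFP- sBC, against 2.29 and 1.28 CPM in DE (6.37 ± 0.47, adjusted p = 0.00297). GP2, a zymogen granule membrane glycoprotein used to mark pancreatic progenitors, had 44.7 and 41.2 CPM in GFP- sBC, against 0.0654 and 0.0131 CPM in DE (10.06 ± 0.63, adjusted p = 0.00261). In all of these the GFP- libraries lay close together and far above DE.

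Of 19 tested duct genes 14 were higher and 1 lower (CA2), with a median of 4.05; 3 were lower without GFP- replicate 1 and 4 without GFP- replicate 2. CFTR, the chloride channel of duct cells (chr7:117480025-117668665, GRCh38.p14), had 399 and 829 CPM in GFP- sBC, against 1.43 and 1.1 CPM in DE (8.97 ± 0.6, adjusted p = 0.00275). SPP1, osteopontin, had 96 and 71.7 CPM in GFP- sBC, against 0.118 and 0.0785 CPM in DE (9.75 ± 0.46, adjusted p = 0.00253). SLC4A4, the bicarbonate cotransporter that feeds duct secretion, had 240 and 383 CPM in GFP- sBC, against 2.03 and 1.86 CPM in DE (7.37 ± 0.42, adjusted p = 0.00253). KRT7, a duct keratin, had 52.9 and 14.7 CPM in GFP- sBC, against 0.0262 and 0.0785 CPM in DE (9.32 ± 1.05, adjusted p = 0.00547). KRT19, the other duct keratin, did not pass: 753 and 295 CPM in GFP- sBC, against 650 and 566 CPM in DE, with the DE values inside the range of GFP- sBC.

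Of 12 tested acinar genes 8 were higher, 0 were lower and the median was 4.69 (3.19 with 3 members at 0 in DE set at their bound). Without DE replicate 2 only 5 were higher. SPINK1, a trypsin inhibitor also found in gut and progenitors, had 105 and 257 CPM in GFP- sBC, against 0.144 and 0.0393 CPM in DE (10.96 ± 0.94, adjusted p = 0.00355). The trypsinogen PRSS1 had 3.91 and 3.96 CPM in GFP- sBC, against 5.52 and 3.75 CPM in DE, without a call, and reads of PRSS1 and its near copy PRSS2 cannot be assigned with certainty. The enzymes CTRB1, CELA2A and PNLIP had 0 counts in both GFP- libraries, and 12 of 20 acinar genes were under 1 CPM in both.

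Hepatoblast and liver genes were mostly higher in GFP- sBC, with 16 of 19 tested genes up, 3 down (HNF4A, TBX3 and HP) and a median of 5.0. SERPINA1, alpha-1 antitrypsin (chr14:94376747-94390635, GRCh38.p14), had 2049 and 3263 CPM in GFP- sBC, against 0 and 0.0262 CPM in DE, a ratio of 197437 with a counting interval of 54655 to 1630310. AFP, alpha-fetoprotein, had 80.3 and 69.4 CPM in GFP- sBC, against 0.0131 CPM in each DE library, a ratio of 5777 (1598 to 47711). ALB, albumin, had 30.9 and 23.1 CPM in GFP- sBC, against 0.0262 and 0.0131 CPM in DE, a ratio of 1401 (479 to 6800). APOA1, an apolipoprotein of liver and gut, had 1052 and 450 CPM in GFP- sBC, against 31 and 21.7 CPM in DE (4.87 ± 0.56, adjusted p = 0.00558). Of the liver list, FGB alone passed against GFP+ sBC, where it was higher in GFP- sBC, a call lost when either GFP+ library was left out. AFP had 250 and 169 CPM and ALB 67.2 and 68 CPM in GFP+ sBC. AHSG, a liver glycoprotein, had at most 0.0587 CPM in GFP- sBC.

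Gut genes gave a mixed picture. Of 12 tested intestinal genes 9 were higher and 1 lower (LGR5), with a median of 5.07. CDX2, the homeobox factor of intestine, had 17.1 and 11.5 CPM in GFP- sBC, against 0.68 and 0.34 CPM in DE (4.85 ± 0.52, adjusted p = 0.00499). OLFM4, a secreted marker of intestinal crypts, had 29.1 and 174 CPM in GFP- sBC, against 0 and 0.0262 CPM in DE, a ratio of 7088 (1962 to 58543). The enterocyte product FABP2 had 0 counts in both GFP- libraries, and the goblet product MUC2 had at most 0.0294 CPM. Of 16 list members, 6 were under 1 CPM in both GFP- libraries. GUCY2C, another member, had 20.2 and 32.2 CPM in GFP- sBC, against 0.327 and 0.314 CPM in DE (6.39 ± 0.43, adjusted p = 0.00278). Of 12 tested stomach and oesophagus genes 10 were higher and 0 lower, with a median of 6.68 (5.89 with 5 members at 0 in DE set at their bound). Those 5 members entered the test only through their GFP- counts and could not have been lower. CLDN18, a gastric claudin, had 192 and 216 CPM in GFP- sBC, against 1.36 and 1.05 CPM in DE (7.45 ± 0.35, adjusted p = 0.00253). GAST, gastrin, which fetal islets also make, had 80.9 and 32.9 CPM in GFP- sBC and 0 counts in DE, at least 3048-fold higher. The gastric products GKN1 and GKN2 had 0 counts in GFP- sBC. Against GFP+ sBC, 1 of 12 tested intestinal genes and 2 of 12 stomach and oesophagus genes were higher. In both lists 0 were lower, beside 2.35% of all genes higher. CLDN18 had 145 and 122 CPM, GAST 90.4 and 85.7 CPM and GUCY2C 42.2 and 34.8 CPM in GFP+ sBC, without a call. OLFM4 was the intestinal gene that passed, with 1.55 and 3.92 CPM in GFP+ sBC.

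Squamous keratins were high in GFP- replicate 1 and low in replicate 2. KRT4, a keratin of oesophageal and other stratified epithelium, had 276 and 2.73 CPM in GFP- sBC and 0 counts in DE (adjusted p = 0.048, lost when either DE library was left out). KRT13, its partner, had 187 and 0.94 CPM in GFP- sBC and 0 counts in DE (adjusted p = 0.0612), and the basal keratin KRT5 had 39.3 and 0.176 CPM in GFP- sBC and 0 counts in DE (adjusted p = 0.0742). KRT17 and TRIM29, further genes of squamous cells, had 98.7 and 62.7 CPM in GFP- replicate 1, against 0.822 and 1.41 CPM in GFP- replicate 2. Replicate 1 of GFP+ sBC also exceeded replicate 2 for KRT4, with 8.34 and 0.16 CPM. Among lung, thyroid and pharyngeal genes 4 of 11 were higher and 2 lower, beside 26.2% and 20.9% of all genes. Their median was 3.14, or 1.11 without GFP- replicate 1 and 3.68 without GFP- replicate 2. NKX2-1, the factor of lung and thyroid buds, had 9.59 and 1.56 CPM in GFP- sBC, against 0.418 and 0.628 CPM in DE (3.45 ± 0.97, adjusted p = 0.0419). The surfactant genes SFTPA1, SFTPB and SFTPC had at most 0.046 CPM in GFP- sBC.

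**Figure D3:**
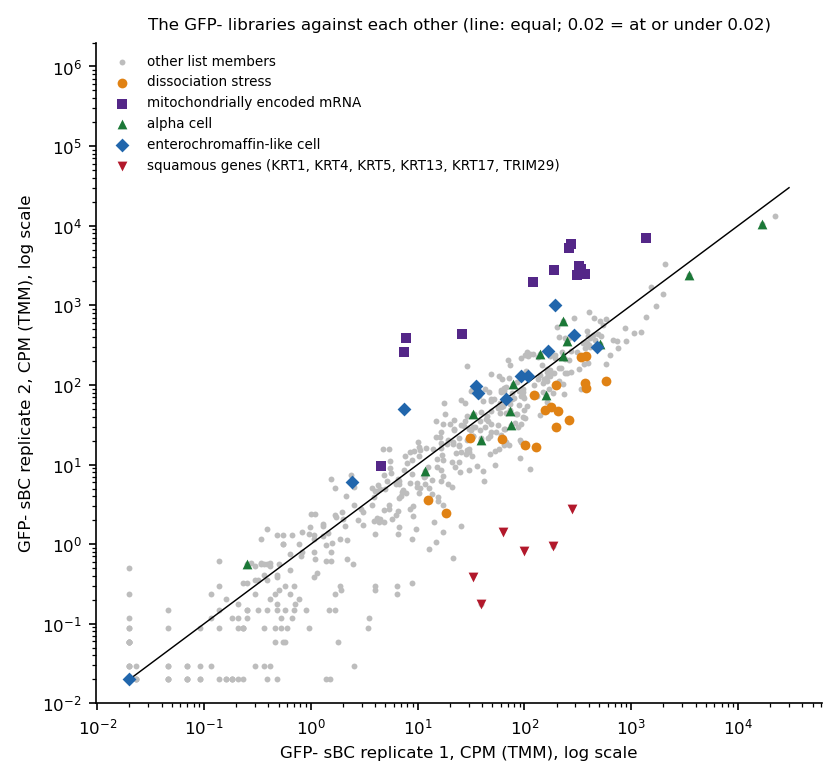
Levels of list members in GFP- replicate 1 (horizontal axis) and GFP- replicate 2 (vertical axis), in CPM on log scales, with the line of equal values and values at or under 0.02 drawn at 0.02. Squamous genes and dissociation stress genes lie below the line, mitochondrially encoded mRNAs lie above it, and alpha cell genes lie near it.

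Mesodermal lists were mixed. Of 18 tested mesenchyme genes 6 were higher and 3 lower, with a median of 0.96, a share of higher genes near the 26.2% of all genes. Without GFP- replicate 1 the counts were 7 higher and 9 lower, and without GFP- replicate 2 they were 11 and 5. COL3A1, a fibroblast collagen, had 21.6 and 0.675 CPM in GFP- sBC, against 0.0262 and 0 CPM in DE, a ratio of 947 (261 to 7830) that rests on replicate 1. COL1A1 had 41.8 and 6.14 CPM in GFP- sBC, against 72.5 and 74.7 CPM in DE (-1.57 ± 0.89, adjusted p = 0.203). The fibroblast markers DCN, LUM and PRRX1 were under 1 CPM in all GFP- and DE libraries. The list members ACTA2 and FN1 were higher in both GFP- libraries. ACTA2 had 38.1 and 27 CPM in GFP- sBC, against 2.31 and 3.06 CPM in DE (3.64 ± 0.35, adjusted p = 0.00422). FN1 had 1529 and 1697 CPM, against 628 and 530 CPM in DE (1.52 ± 0.23, adjusted p = 0.00937). Against GFP+ sBC, 4 of 16 tested mesenchyme genes were higher and 0 lower, beside 2.35% of all genes higher. Endothelial genes had 2 of 12 higher and 4 lower (median -0.72), or 2 and 2 when either DE library was left out, and the defining PECAM1 and CDH5 had at most 0.294 CPM in GFP- sBC. Muscle genes had 2 of 11 higher and 7 lower (median -3.35): MYL7, an atrial light chain, had 0.276 and 0.587 CPM in GFP- sBC, against 141 and 120 CPM in DE (-8.21 ± 0.52, adjusted p = 0.00265). Mesothelial and renal genes had 5 of 13 higher and 2 lower, beside 26.2% and 20.9% of all genes. Their median was 1.90, or 1.1 without GFP- replicate 1 and 2.74 without GFP- replicate 2. WT1 had 0 counts in GFP- sBC.

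Most immune and blood genes were near 0 in GFP- sBC. Of 17 list members, 11 were under 1 CPM in both GFP- libraries, and 4 of the 9 tested were higher and 2 lower (median 1.69); without GFP- replicate 2 the counts were 6 and 5, and without DE replicate 2 they were 4 and 0. PTPRC, which encodes CD45, had 0.069 and 0 CPM in GFP- sBC, against 0.0262 and 0.0523 CPM in DE, and CD3E had 0 counts in GFP- sBC. LYZ, lysozyme, had 52.3 and 67.1 CPM in GFP- sBC, against 0.445 and 0.602 CPM in DE (6.87 ± 0.39, adjusted p = 0.00253). LTB, lymphotoxin beta, had 21.3 and 18.1 CPM in GFP- sBC, against 0.301 and 0.236 CPM in DE (6.24 ± 0.37, adjusted p = 0.00253). The members that rose were LYZ, LTB, CD68 and HBB, while CD14, SPI1 and TYROBP had at most 0.184 CPM in GFP- sBC. LYZ had 60.5 and 55.9 CPM, CD68 31.1 and 33 CPM and HBB 1.4 and 1.55 CPM in GFP+ sBC, without a call. LTB was higher in GFP- than in GFP+ sBC.

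Neural and neural crest genes had 9 of 18 higher and 3 lower, with a median of 2.38, against 6 and 2 without DE replicate 1. STMN2, a microtubule regulator of neurons and islet cells, had 58.3 and 128 CPM in GFP- sBC, against 2.67 and 3.82 CPM in DE (4.89 ± 0.56, adjusted p = 0.0055). SOX10, the factor of glia and neural crest, had 5.38 and 3.14 CPM in GFP- sBC, against 16.1 and 15.5 CPM in DE (-1.84 ± 0.37, adjusted p = 0.0181), a call lost when either DE library was left out. HOX genes stayed low: 29 of 39 were under 1 CPM in both GFP- libraries, and 8 of the 17 tested were higher and 1 lower (HOXD13). Without GFP- replicate 1 the HOX counts were 4 higher and 5 lower, and without GFP- replicate 2 they were 15 and 3.

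Cell-cycle genes were lower in GFP- sBC than in DE for 19 of 22 members, with 0 higher and a median of -3.29. MKI67, the antigen Ki-67 of cycling cells, had 63.8 and 17.7 CPM in GFP- sBC, against 200 and 223 CPM in DE (-2.33 ± 0.66, adjusted p = 0.0422), a call lost under a stricter count filter or with protein-coding genes alone. CDK1, the mitotic kinase, had 6.74 and 3.82 CPM in GFP- sBC, against 129 and 138 CPM in DE (-4.61 ± 0.41, adjusted p = 0.00366). Of 21 members with a mean of at least 1 CPM in GFP- sBC, 20 were higher in GFP- replicate 1 than in replicate 2. Both replicates lay below DE for MKI67 and CDK1.

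Antigen presentation genes were higher in GFP- sBC for 23 of 27 members and lower for 2 (HLA-DPA1 and HLA-DPB1), with a median of 2.93; without DE replicate 2 the counts were 15 and 0, and without DE replicate 1 they were 16 and 0. HLA-B had 406 and 305 CPM in GFP- sBC, against 48.8 and 50.1 CPM in DE (2.89 ± 0.27, adjusted p = 0.00394), with the caution that reads of HLA genes are shared among near copies. NLRC5, the transactivator of class I genes, had 15.3 and 9.34 CPM in GFP- sBC, against 0.248 and 0.249 CPM in DE (5.67 ± 0.45, adjusted p = 0.00331). CD74, the class II invariant chain, had 164 and 113 CPM in GFP- sBC, against 3.26 and 3.36 CPM in DE (5.43 ± 0.35, adjusted p = 0.00275), while HLA-DRA, the class II chain of immune cells, had at most 0.207 CPM in GFP- sBC. Against GFP+ sBC, 1 of 26 tested members was higher and 0 lower, beside 2.35% of all genes higher. HLA-B had 131 and 91.4 CPM, NLRC5 8.17 and 7.88 CPM and CD74 149 and 111 CPM in GFP+ sBC, without a call.

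Stress genes moved with replicate. Dissociation stress genes, induced when tissue is broken up for sorting, were higher for 9 of 18 members and lower for 1 (IER3), with a median of 1.58, and all 18 were higher in GFP- replicate 1 than in replicate 2. Without GFP- replicate 1 the counts were 9 and 8, and without GFP- replicate 2 they were 15 and 1. FOS, an immediate early gene, had 375 and 91.8 CPM in GFP- sBC, against 6.6 and 3.85 CPM in DE (5.52 ± 0.88, adjusted p = 0.0109). In GFP+ sBC it had 317 and 93.1 CPM. The 18 members summed to 3704 and 1238 CPM in GFP- sBC and to 2401 and 1262 CPM in GFP+ sBC. Between these fractions 0 of 18 passed in either direction. ER stress genes had 7 of 18 higher and 3 lower, beside 26.2% and 20.9% of all genes. Their median was 0.94, or 0.99 without DE replicate 1 and 0.8 without DE replicate 2. The ER chaperone HSPA5 had 454 and 363 CPM in GFP- sBC, against 121 and 121 CPM in DE (1.8 ± 0.24, adjusted p = 0.00725), a call lost when either DE library was left out. Of 13 mitochondrially encoded mRNAs 0 passed in either direction, against 12 higher and 0 lower without GFP- replicate 1, 0 and 10 without GFP- replicate 2, and 3 and 0 without DE replicate 1. All 13 were lower in GFP- replicate 1 than in replicate 2. MT-ND4 had 270 and 5819 CPM in GFP- sBC, against 1420 and 1121 CPM in DE. How far these replicate differences entered the other lists was not tested.

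Basement membrane and matrix genes were higher in GFP- sBC than in DE for 14 of 20 members and lower for 1 (COL9A3), with a median of 1.93; 19 of 20 were higher in GFP- replicate 1 than in replicate 2. The counts were 9 and 1 when either DE library was left out. Epithelial junction and keratin genes had 7 of 18 higher and 4 lower (median -0.08), or 5 and 1 when either DE library was left out. Notch, WNT and Hippo genes had 7 of 20 higher and 5 lower. Their median was 0.34, or -0.23 without GFP- replicate 1 and 0.75 without GFP- replicate 2. Hypoxia genes had 4 of 16 higher and 5 lower (median -0.39), or 7 and 8 without GFP- replicate 1 and 1 and 2 when either DE library was left out.

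GFP- and GFP+ cells, sorted from the same kind of culture, were also compared directly. In that fit 465 of 19797 genes were higher in GFP- sBC (2.35%) and 16 were lower (0.0808%), and the libraries of the fractions did not overlap for 45.7% of genes. Without GFP- replicate 2 the counts were 4227 and 3587, and without GFP- replicate 1 they were 678 and 101. The comparison shares the GFP- libraries with the one against DE. No alpha cell, endocrine progenitor, granule or enterochromaffin-like gene passed in either direction with all 4 libraries. Without GFP- replicate 2 the counts were 2 higher and 3 lower for alpha cell genes, 2 and 6 for endocrine progenitor genes, 0 and 8 for granule genes and 0 and 3 for enterochromaffin-like genes. Without GFP- replicate 1 they were 1 and 1 for alpha cell genes and 0 and 1 for endocrine progenitor genes. GCG had 16601 and 10540 CPM in GFP- sBC, against 30768 and 20160 CPM in GFP+ sBC (-0.9, adjusted p = 0.509). CHGA had 22391 and 13426 CPM in GFP- sBC, against 14734 and 18277 CPM in GFP+ sBC (0.12, adjusted p = 0.927). INS, the gene read by the sort, had 1702 and 980 CPM in GFP- sBC, against 4396 and 4826 CPM in GFP+ sBC (-1.78, adjusted p = 0.075), and it passed when GFP- replicate 1 (-2.2) or GFP- replicate 2 (-1.45) was left out. SST was the hormone that passed, lower in GFP- sBC with 133 and 117 CPM, against 782 and 926 CPM in GFP+ sBC (-2.77, adjusted p = 0.0087).

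Some duct and progenitor genes were higher in GFP- than in GFP+ cells. Of 18 tested duct genes 6 passed upward and of 19 progenitor genes 5, against 2.35% of all genes, and 0 passed downward in either list; without GFP- replicate 2, 7 progenitor genes were higher and 3 lower. CFTR had 399 and 829 CPM in GFP- sBC, against 8.54 and 8.79 CPM in GFP+ sBC (log2 fold change 6.16, adjusted p = 0.00311). SOX9 had 162 and 126 CPM in GFP- sBC, against 6.31 and 7.83 CPM in GFP+ sBC (4.35, adjusted p = 0.0035). GP2 had 44.7 and 41.2 CPM in GFP- sBC, against 0.602 and 1.2 CPM in GFP+ sBC (5.57, adjusted p = 0.0035). NKX6-1 and PDX1 did not pass, with 177 and 141 CPM of NKX6-1 in GFP- sBC, against 107 and 115 CPM in GFP+ sBC; NKX6-1 passed without GFP- replicate 2 (0.67). Without GFP- replicate 2, 11 duct genes were higher.

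Some matrix and signalling genes were higher in GFP- sBC as well. Of 20 basement membrane genes 10 were higher in GFP- than in GFP+ sBC and 0 lower, beside 2.35% and 0.0808% of all genes. Their median log2 fold change was 2.73, or 1.7 without GFP- replicate 1 and 3.29 without GFP- replicate 2. NID2, nidogen 2, had 16.5 and 18.4 CPM in GFP- sBC, against 0.172 and 0.266 CPM in GFP+ sBC (6.29, adjusted p = 0.00311). Of 18 Notch, WNT and Hippo genes 9 were higher and 0 lower, beside the same shares of all genes. JAG1, a Notch ligand of duct cells, had 162 and 144 CPM in GFP- sBC, against 17.3 and 20.2 CPM in GFP+ sBC (3.03, adjusted p = 0.00744). ANKRD1, a target of the Hippo effector YAP that was lower than in DE, had 31 and 21.5 CPM in GFP- sBC, against 0.545 and 0.506 CPM in GFP+ sBC (5.64, adjusted p = 0.00311). Of 22 cell-cycle genes 6 were higher, and 18 were higher without GFP- replicate 2: MKI67 had 63.8 and 17.7 CPM in GFP- sBC, against 2.49 and 0.879 CPM in GFP+ sBC (4.6, adjusted p = 0.026). For MKI67 the GFP- libraries lay below both DE libraries and above both GFP+ libraries.

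Of 17 tested neural and neural crest genes 5 were higher in GFP- than in GFP+ sBC and 0 lower, with a median of 1.04; without GFP- replicate 2 the counts were 5 and 2. SOX10 had 5.38 and 3.14 CPM in GFP- sBC, against 0.0287 and 0 CPM in GFP+ sBC, a ratio of 319 with a counting interval of 56.8 to 12621 (adjusted p = 0.00807). S100B, another glial marker, was near 0 in both fractions, with 0.161 and 0.206 CPM in GFP- sBC, against 0.143 and 0.213 CPM in GFP+ sBC. STMN2 did not pass, with 58.3 and 128 CPM in GFP- sBC, against 157 and 225 CPM in GFP+ sBC (-1.03, adjusted p = 0.412). NES, nestin, of neural and mesenchymal progenitors, had 337 and 88.1 CPM in GFP- sBC, against 3.44 and 2.53 CPM in GFP+ sBC (6.16, adjusted p = 0.00747), while against DE, with 165 and 132 CPM, it had no call. LTB had 21.3 and 18.1 CPM in GFP- sBC, against 0.115 and 0.16 CPM in GFP+ sBC (7.13, adjusted p = 0.00295). The beta cell list gave DLK1, a Notch-like surface protein of progenitors, with 2003 and 1404 CPM in GFP- sBC, against 75.4 and 96.5 CPM in GFP+ sBC (4.31, adjusted p = 0.00392), and ERO1B, an oxidase for disulfide formation in proinsulin, with 46.3 and 81.9 CPM in GFP- sBC, against 310 and 265 CPM in GFP+ sBC (-2.16, adjusted p = 0.0348). The ERO1B call was lost when either GFP+ library was left out.

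**Figure D4:**
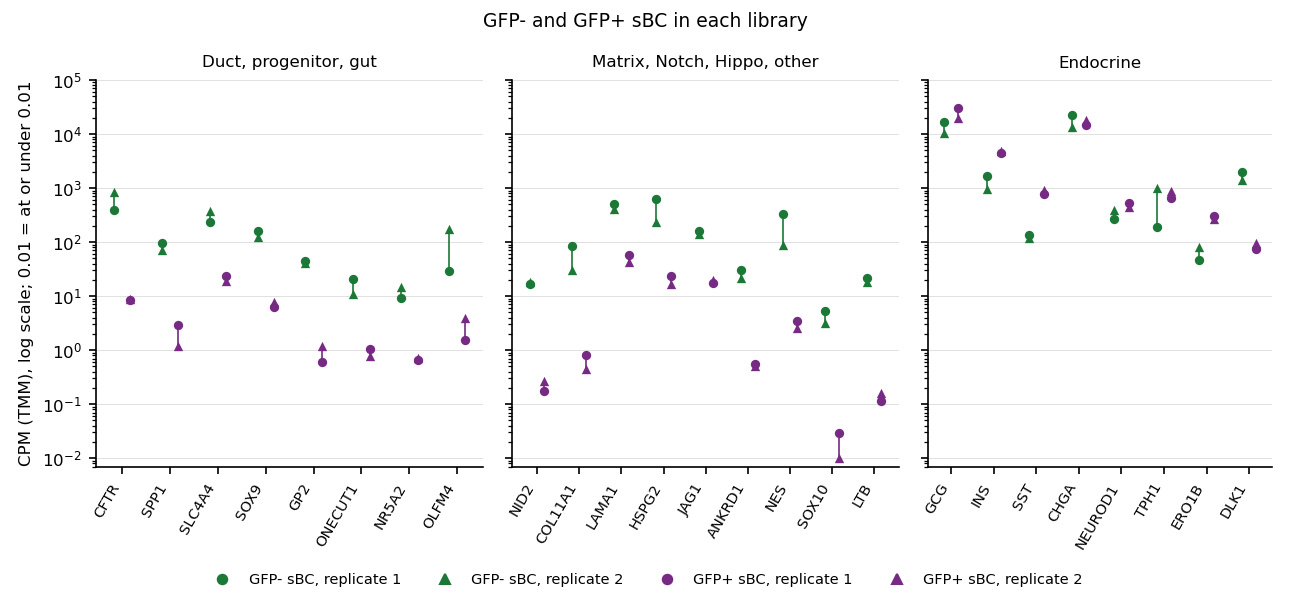
Levels in each library (vertical axis, CPM on a log scale, with values at or under 0.01 drawn at 0.01) of GFP- sBC in green left of GFP+ sBC in purple, circles for replicate 1 and triangles for replicate 2, for genes chosen after their values were seen. The genes of the left and middle panels are higher in both GFP- libraries, whereas GCG, CHGA and TPH1 had no call between the fractions.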

How the data were processed

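RNA libraries of GFP- sBC, DE and GFP+ sBC (2 each) were used, from rRNA-depleted total RNA per the labels. The deposited values are expected counts per gene, made by the authors; Salmon and the build GRCh38 are named in the submitters' processing notes, and their settings are not given in the sources used here. The expected counts were rounded. Genes were filtered with filterByExpr, scaled by TMM and tested with edgeR's quasi-likelihood test (version 4.0.16, R 4.3.3, robust), with Benjamini-Hochberg adjustment over all genes tested and a threshold of 0.05. The method was tested on simulated data with the same spread for all genes in both groups. That simulation therefore does not cover the wider spread of the GFP- libraries. SE is the log2 fold change divided by the square root of F. Intervals and floors (3 counts) cover counting error only. Members and 31 gene lists were chosen with earlier results of these data known. Genes were named by rule: the 12 largest changes per direction, with no overlap and a mean log2 CPM of at least 3 (4 for GFP+ sBC); up to 5 called and 3 uncalled members of each list; members under 1 CPM; and a set of lineage markers. ANKRD1, DLK1, ERO1B, KRT17, PCSK1, SOX10, TRIM29, VGF, the few list members named as lower and the genes of the GFP- and GFP+ plot were chosen after their values were seen. Some results are not reported here. The tests with limma and DESeq2 and other alternatives are given below.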

Additional observations from a re-analysis of the deposited data

How the results depend on the processing

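Against DE, the 10150 genes called became 5982 (3802 higher, 2180 lower) when tested with glmTreat against a log2 fold change of 1, and between 4743 and 17693 when 1 library was left out. Against GFP+ sBC, the 481 genes called became 1596 with no filter, 1263 with DESeq2, 245 with glmTreat, 1263 with all 8 RNA libraries in one fit and 856 with limma weights, and between 384 and 7814 when 1 library was left out. With a replicate block, 10581 genes were called against DE and 1258 against GFP+ sBC. The log2 difference of replicate 1 from replicate 2 was taken per gene in each group. Over 16339 genes, that difference in GFP- sBC correlated at -0.02 with the one in DE and at 0.12 with the one in GFP+ sBC. The labels do not say that the numbers pair the samples. Under the block against GFP+ sBC, 18 further genes named here passed and none named was lost; INS, at -1.83, was among those that passed. The causes were not tested. With 2 libraries a group, the spread of GFP- sBC rests on a pair that differed widely, and lists and genes at few counts are limited by depth. Among genes named without a call against DE, 4 changed sign when a GFP- library was left out: without replicate 1 and without replicate 2, the log2 fold change was -0.9 and 0.35 for KRT19, 2.34 and -2.19 for MT-ND4, -0.61 and 1.22 for NES and 0.9 and -0.47 for RAB3B.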
